A study of Mus musculus with 2 samples.

Results

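The 4 Ebf genes of the mouse, Ebf1, Ebf2, Ebf3 and Ebf4, were placed on the list of domain boundaries of olfactory neuronal precursors. They were taken by name from the GENCODE M21 annotation, and all 4 matched, out of 21755 protein-coding genes on the 19 autosomes and chromosome X. The cells were immediate neuronal precursors of the mouse olfactory epithelium, sorted for a Ngn1-GFP reporter from untreated pups of both sexes (strain FVB/NTac). There was 1 group. Its 2 biological replicates held 2200000 and 2100000 cells, which had been fixed with formaldehyde at 1%, and contacts were measured by in situ Hi-C, in which DNA cut with DpnII is ligated within fixed nuclei. GFP from this reporter marks cells in which the proneural gene Neurog1 is or was recently active, so that the sorted cells can span more than one stage. Expression was not analysed here, and the identity of the sorted cells was therefore not checked against markers.

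Ebf proteins (early B-cell factors, also called Olf/Ebf or O/E factors) bind DNA as dimers at palindromic sites. They were found both as regulators of B lymphocytes and as factors that bind the promoters of olfactory neuron genes. In olfactory neurons they bind the enhancers of odorant receptor genes together with the LIM homeodomain protein Lhx2, and the adaptor Ldb1 joins these enhancers across chromosomes. Domain boundaries are positions across which contacts are less frequent, without being absent. A gene and the regulatory elements within the same pair of boundaries therefore tend to meet more often than elements on opposite sides.

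The list holds 7841 boundaries, each an interval of 5 kb with a class, strong or weak, and a score from the authors. Strong boundaries have the higher scores, but the scale of the score is not given in the sources used here, so scores are compared by rank and difference within the list. The median score was 0.53, and 4137 boundaries were strong. Boundaries were called on the contacts of both replicates combined. Every value below is therefore a single value without replicate error, the depth behind it is unknown, and no test was made. A domain here is the stretch from the centre of the nearest boundary on one side of a gene's start to the centre of the nearest on the other side, and upstream and downstream follow the direction of transcription. Positions are on GRCm38, and a start is the 5′ end of the gene model. Of the protein-coding genes, 21528 had a boundary on both sides and serve as the reference for ranks.

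Ebf1, Ebf2 and Ebf3 were each the only protein-coding start in the domain, which the gene nearly filled, with a boundary of high score upstream of the start. Their downstream boundary had a near-median score and lay 1.91 kb beyond the end of Ebf1 and inside Ebf2 and Ebf3. Ebf4 instead shared its domain with 8 other protein-coding starts and had boundaries of near-equal score on both sides. All 4 starts had strong boundaries on both sides, as did 38.1% of all protein-coding genes. The start was nearer to the upstream boundary in all 4, against 51.7% of genes.

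**Figure D1:**
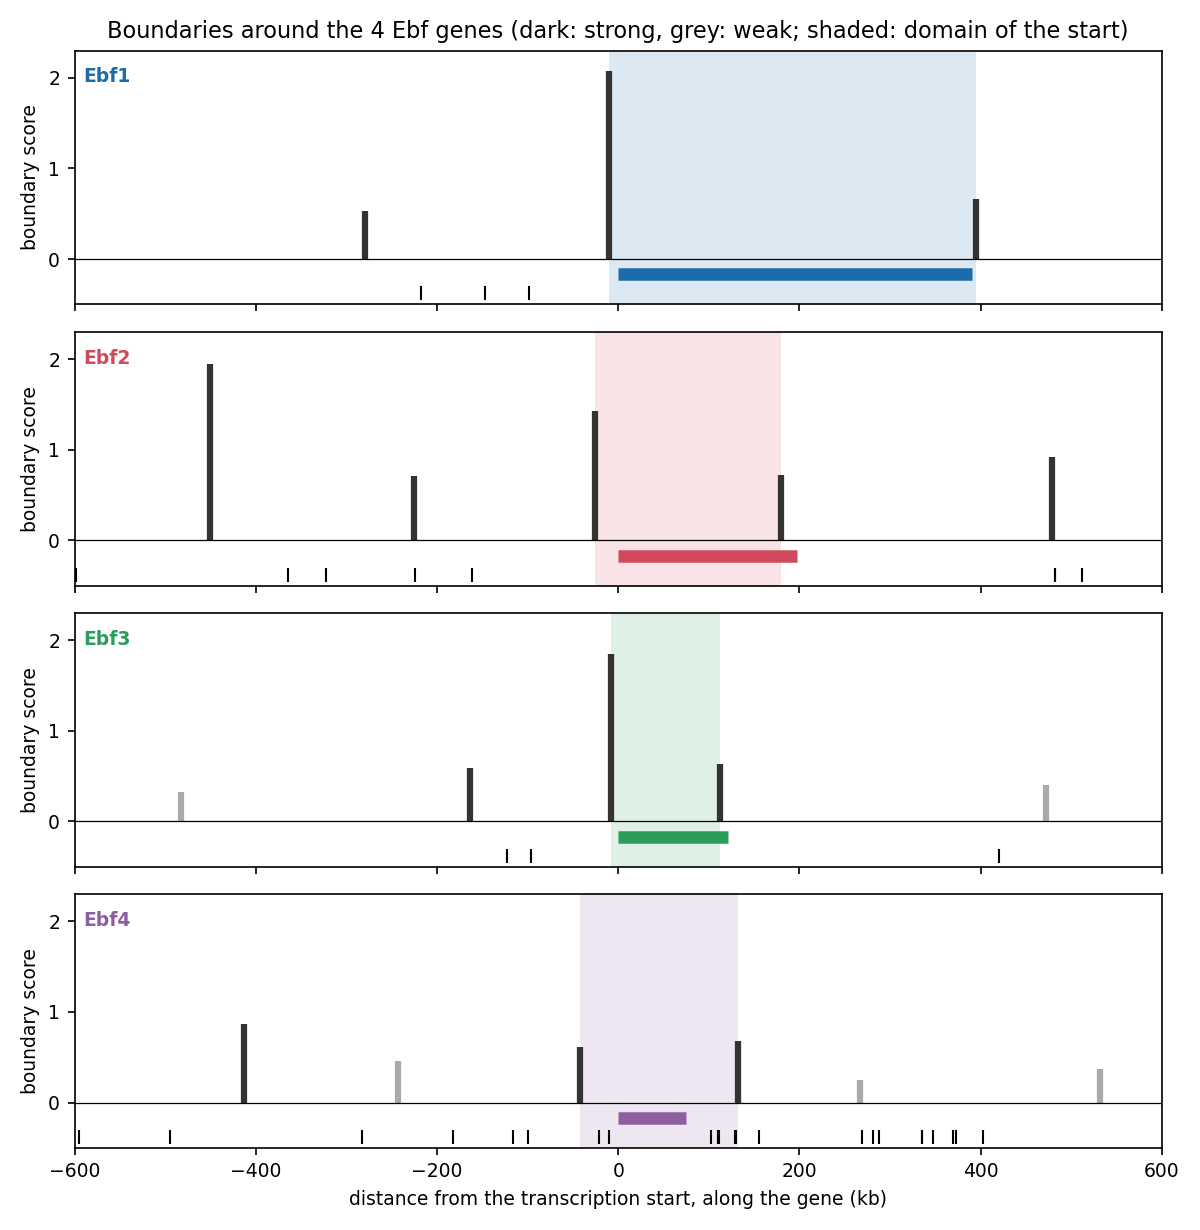
Boundary scores (vertical bars; dark for the strong class, grey for the weak) against the distance in kb from the start of each Ebf gene, along its direction of transcription. The coloured bar is the gene, the shading the domain of its start, and each tick a start of another protein-coding gene; the shading around Ebf1, Ebf2 and Ebf3 holds no tick, and that around Ebf4 holds 8.

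Ebf1, the founding member and the one required for B-cell development, lay on chromosome 11 from 44617317 to 45008091 on the plus strand. It was 391 kb long, longer than 98.3% of protein-coding genes. The boundary upstream (44605001 to 44610000) was 7.32 kb from the start and had a score of 2.08, rank 92 of the 7841. The boundary downstream (45010001 to 45015000) had a score of 0.66, rank 3148, and lay 1.91 kb beyond the end of the gene. The domain between them measured 405 kb, longer than 76.6% of all domains in the list, and the gene covered 96.5% of it.

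No boundary was called within the body of Ebf1. Among the 768 protein-coding genes of 200 to 500 kb, 63% had at least 1 boundary in the gene body. The domain held no other protein-coding start, and the only other annotated genes starting in it were Gm12158, antisense to Ebf1, and Gm37695, a transcribed region awaiting experimental evidence, which started 0.301 kb upstream on the opposite strand. The next protein-coding start upstream was that of Rnf145, at 98.4 kb and beyond the boundary of 2.08. Downstream the next was Clint1, a gene of vesicle transport, at 1235 kb with 4 boundaries in between, of which that at the end of Ebf1 had the highest score. Ebf1 thus lay between a set of genes upstream and a long stretch without protein-coding starts downstream.

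Ebf3, which acts in neural development, lay on chromosome 7 from 137193673 to 137314445 on the minus strand. Its upstream boundary (137320001 to 137325000) was 5.56 kb from the start, with a score of 1.84 and rank 193. The downstream boundary (137200001 to 137205000) scored 0.633, rank 3305, and lay inside the gene, 6.33 kb before its end. The domain was short, at 120 kb, and 3.8% of all domains were shorter. The part of the gene on the near side of that boundary covered 93.3% of the domain, and 8.83 kb of the gene lay beyond its centre.

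The domain of Ebf3 held no other protein-coding start, and the antisense gene Gm10578 was the only other annotated start. Upstream, 9430038I01Rik started 96.3 kb away beyond the boundary of 1.84. Downstream, Mgmt, which encodes a DNA repair enzyme, started 419.8 kb away beyond the boundary of 0.633. Of the 4 annotated starts of Ebf3 protein-coding transcripts, 3 lay within 0.459 kb of each other, and the most internal lay 46.9 kb into the gene, still in the same domain.

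Ebf2, a regulator of neuronal migration and of brown fat identity, lay on chromosome 14 from 67233292 to 67430918 on the plus strand. Its upstream boundary (67205001 to 67210000) was farther from the start than in Ebf1 and Ebf3, at 23.3 kb, with a score of 1.43 and rank 519. It overlapped Gm30806, a long noncoding RNA gene on the same strand that ends ahead of Ebf2. The downstream boundary (67410001 to 67415000) scored 0.72, rank 2829, and lay inside the gene, 15.9 kb before its end. The domain measured 205 kb, of which the gene covered 87.4%, and 18.4 kb of the gene lay beyond the downstream boundary's centre.

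No other protein-coding gene started in the domain of Ebf2, but 5 noncoding genes did. The lincRNA gene Gm20675 started 0.163 kb upstream on the opposite strand, and 1700120O09Rik and the antisense genes Gm6878 and 4930438E09Rik ran against the gene within it. Ppp2r2a, a phosphatase subunit gene, started 160.8 kb upstream, and Cdca2, a gene of mitotic chromosomes, 482.5 kb downstream. At least 1 boundary separated Ebf2 from each. Within 1 Mb of the start there were 9 boundaries, 7 of them strong, while 4137 of the 7841 listed boundaries were strong. The highest of the 9 (score 1.94, rank 147) was not next to Ebf2 but 450.8 kb upstream.

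Ebf4, the shortest member, lay on chromosome 2 from 130295169 to 130370481 on the plus strand, 75.3 kb in length. Its upstream boundary (130250001 to 130255000) was 40.2 kb from the start with a score of 0.61, rank 3437, and lay in an intron of Tmc2. Its downstream boundary (130425001 to 130430000) was 129.8 kb from the start with a score of 0.682, rank 3033, and lay in an intron of Vps16. The gene covered 43% of its 175 kb domain, and no boundary was called within it. Of all protein-coding genes of 50 to 100 kb, 20% had a boundary in the body and 12.3% were the only protein-coding start of their domain.

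The domain of Ebf4 held 8 other protein-coding starts and 15 other starts of any type. Of all protein-coding genes, 66.3% had fewer protein-coding starts in their domain, and 69.3% had fewer starts of any type. Upstream of Ebf4 started Idh3b, a subunit gene of the citric acid cycle's isocitrate dehydrogenase, at 10.6 kb on the opposite strand, and Nop56, a core gene of small nucleolar ribonucleoproteins, at 20.7 kb. Nop56 carried 5 annotated small nucleolar RNA genes in its span. Downstream of the start came Cpxm1 at 102.4 kb, Gm28372 and 1700020A23Rik at 110.1 kb, Tmem239 at 111.3 kb, Vps16, a gene of vesicle tethering to lysosomes, at 129.2 kb and Pced1a at 129.5 kb. No boundary lay between Ebf4 and the next protein-coding start on either side.

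The members also differed in their surroundings. Within 600 kb of the start there were 3 other protein-coding starts around Ebf1, 3 around Ebf3 and 8 around Ebf2, against 24 around Ebf4. Within 1 Mb, Ebf4 had 11 boundaries, of which 6 were strong, and no score was above 0.887. Ebf1 and Ebf3 had 6 boundaries each, 4 of them strong, and in both the highest was the one just upstream of the start. The same counts were not made for all genes, so that they compare the Ebf genes only with each other.

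Side by side, the upstream scores of 2.08, 1.84 and 1.43 for Ebf1, Ebf3 and Ebf2 stood higher than those upstream of 98.5, 96.9 and 92.1% of protein-coding genes. The upstream score of Ebf4, 0.61, stood higher than 47.4%. The downstream scores of the 4 genes lay close together, from 0.633 to 0.72, near the median of 0.625 over all genes. The upstream minus the downstream score was 1.42 at Ebf1, 1.21 at Ebf3, 0.706 at Ebf2 and -0.0722 at Ebf4. The upstream score was thus the higher in 3 of 4 members, against 51% of all genes. The difference stood higher than in 97.6% of genes at Ebf1, 96.0% at Ebf3, 86.8% at Ebf2 and 43.8% at Ebf4.

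**Figure D2:**
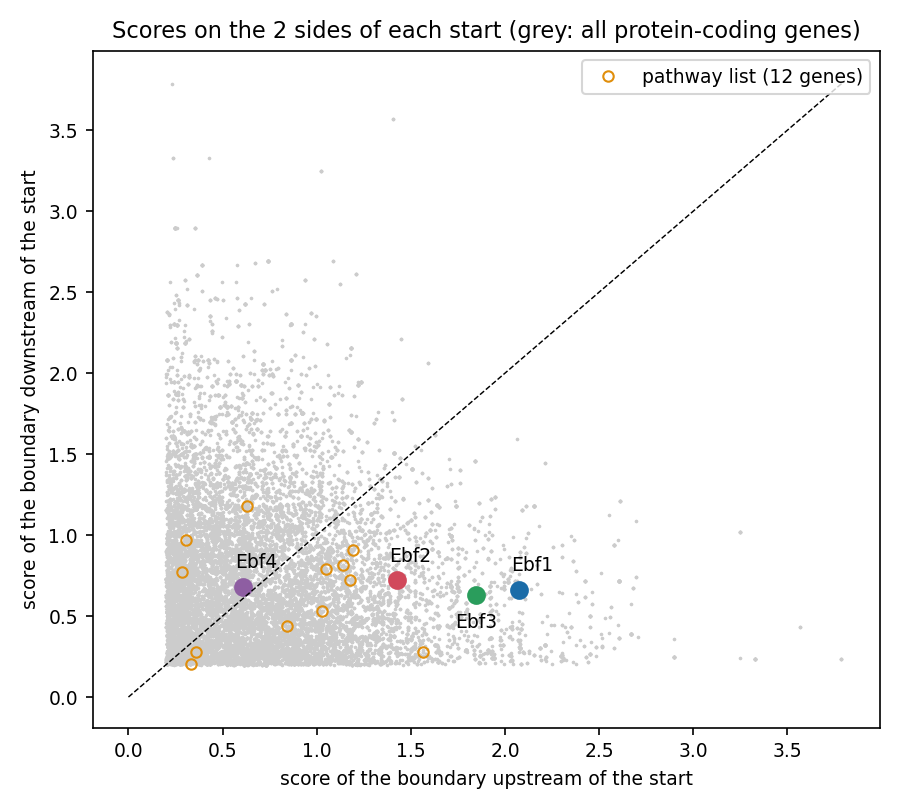
Score of the boundary upstream of each start (horizontal) against the score of the boundary downstream (vertical), in the authors' units, for all protein-coding genes (grey), the 12 genes of the pathway list (open circles) and the Ebf genes (filled). The 4 Ebf genes sit at near-equal height, with downstream scores from 0.633 to 0.72, and spread along the horizontal axis from 0.61 to 2.08; the dashed line marks equal scores.

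Counted by distance, Ebf1 and Ebf3 started within 10 kb of a boundary and Ebf2 and Ebf4 did not. That was 2 of 4 members, beside 16.4% of protein-coding genes, and 10.6% for strong boundaries alone. For genes of 100 to 200 kb, the length class of Ebf2 and Ebf3, the share within 10 kb was 19.3%, and for the class of Ebf1, 200 to 500 kb, it was 19.5%. With the window narrowed to 0 kb no member remained, at 25 kb there were 3 (Ebf2 added) and at 50 kb all 4, beside 5.07, 27.8 and 46.3% of genes. Nearer to a boundary than Ebf3 were 12.8% of genes, and than Ebf1 14.5%.

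How far the gene filled the domain of its start was measured after the loci had been seen. Coverage of at least 80% was found for 3 of 4 members and for 1.59% of all protein-coding genes. Long genes reach this coverage more often. In the class of 100 to 200 kb it was 6.33% of 1484 genes, and in that of 200 to 500 kb 19.5% of 764. Ebf2 and Ebf3 ran past the downstream boundary, so that their coverage follows from the upstream distance and the domain length. The start and the end each lay within 10 kb of a different boundary at Ebf1 and Ebf3, as for 0.359% of all genes. Within their length classes that share was 3.52% for Ebf1 and 2.75% for Ebf3.

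Being the only protein-coding start in the domain followed the same split. It held for 3 of 4 members, against 9.01% of all genes, 28.3% of genes of 100 to 200 kb and 46.9% of genes of 200 to 500 kb. At least 1 boundary separated 6 of the 8 pairs formed by an Ebf gene and its next protein-coding start, against 26.9% of all adjacent pairs. For Ebf1, Ebf2 and Ebf3 this follows from being the only protein-coding start in the domain, and it is not a separate result. The 6 separated pairs lay 96.3 to 1235 kb apart, and the reference pairs were not matched for distance. Both unseparated pairs were those of Ebf4.

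**Figure D3:**
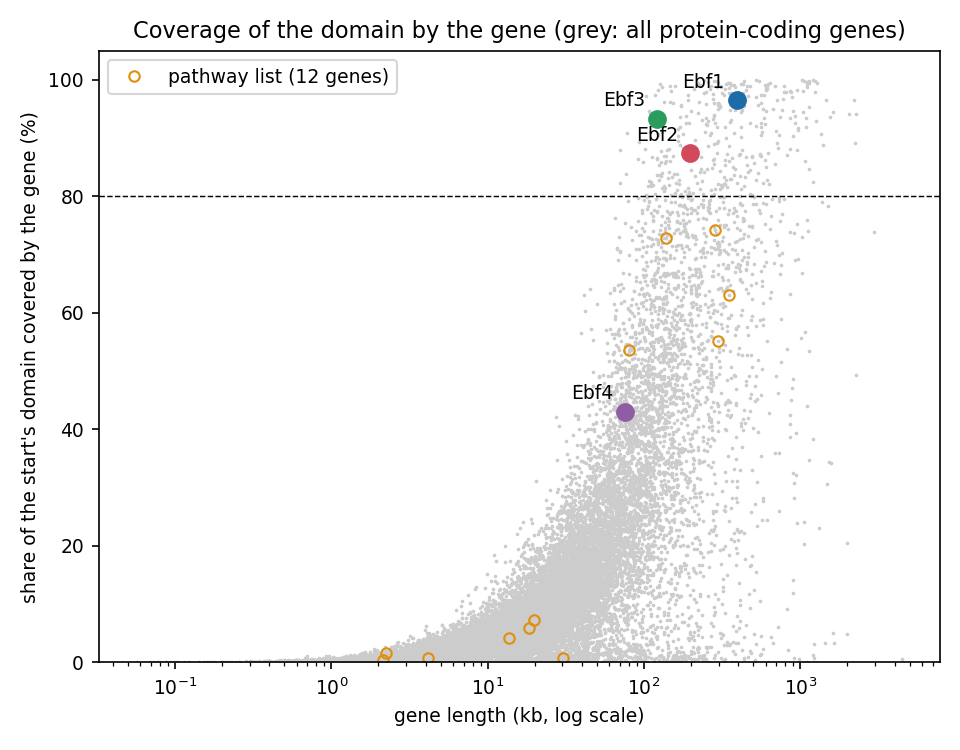
Share of the start's domain covered by the gene (%, vertical) against gene length (kb, log scale) for all protein-coding genes (grey), the 12 genes of the pathway list (open circles) and the Ebf genes (filled). Ebf1, Ebf3 and Ebf2 sit at 96.5, 93.3 and 87.4%, above the dashed line at 80%, and Ebf4 at 43%.

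The boundary intervals inside Ebf2 and Ebf3 overlapped in part the same exons of the family. A boundary in the gene body was present in 2 of 4 members, beside 13.9% of all protein-coding genes and 34.2% of genes of 100 to 200 kb. In Ebf3 the 5 kb interval overlapped exons 12 and 13 of 16 in the transcript with the longest coding sequence. In Ebf2 it overlapped exons 12 to 15 of 17. Exons 13 and 14 of Ebf2 had the same lengths as exons 12 and 13 of Ebf3, 66 and 178 bases, and between these genes each was the best match of the other among the wholly coding exons. Relative to the centre of the boundary the pair lay on the near side in Ebf2 and beyond it in Ebf3. The equivalents in Ebf3 of the other exons in the interval of Ebf2, exons 12 and 15, lay 1.19 and 0.719 kb outside the interval of Ebf3. Both pairs are shown because they lay inside a boundary interval in each gene, with capitals for bases identical at the same position of the pair, 5′ to 3′ on the coding strand, from the GRCm38.p6 reference.
Ebf2 exon 13: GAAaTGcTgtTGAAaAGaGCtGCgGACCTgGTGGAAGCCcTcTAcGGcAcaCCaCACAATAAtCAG
Ebf3 exon 12: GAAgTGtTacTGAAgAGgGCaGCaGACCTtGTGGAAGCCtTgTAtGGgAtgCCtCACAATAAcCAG
Ebf2 exon 14: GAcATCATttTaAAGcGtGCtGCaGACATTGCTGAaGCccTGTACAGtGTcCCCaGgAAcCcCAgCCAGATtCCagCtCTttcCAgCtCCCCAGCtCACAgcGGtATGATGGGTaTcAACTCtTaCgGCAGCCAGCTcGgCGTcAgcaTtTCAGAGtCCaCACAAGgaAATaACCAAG
Ebf3 exon 13: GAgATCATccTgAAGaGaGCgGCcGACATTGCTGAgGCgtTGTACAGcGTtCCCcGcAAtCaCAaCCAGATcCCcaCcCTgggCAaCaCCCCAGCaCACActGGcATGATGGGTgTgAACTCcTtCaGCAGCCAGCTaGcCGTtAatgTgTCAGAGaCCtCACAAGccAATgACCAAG

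The shorter pair (chromosome 14, 67411664 to 67411729, and chromosome 7, 137201126 to 137201191) was identical at 49 of 66 bases, 74.2%. The longer pair (chromosome 14, 67411812 to 67411989, and chromosome 7, 137200383 to 137200560) was identical at 130 of 178 bases, 73.0%. Exons near the end of these genes are close together, so that an interval of 5 kb can take in several. In Ebf3 the interval also overlapped the antisense gene Gm45278, and without expression data neither gene's use of this stretch was examined.

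The same exon pair lay outside the boundary in the other members. Exons 12 and 13 of Ebf3 were closer in sequence to their equivalents in Ebf1 (81.8 and 77.5% identity) than to those in Ebf2. In Ebf1 the equivalents of exons 12 and 13 of Ebf3 were 19.4 and 18.4 kb before the downstream boundary, and all 16 exons lay in the domain. In Ebf4 they were 63.1 and 62.8 kb before it, and all 18 exons lay in the domain. In Ebf2, 14 of 17 exons were centred on the near side of the boundary's centre and 3 beyond, and in Ebf3, 11 of 16 and 5.

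**Figure D4:**
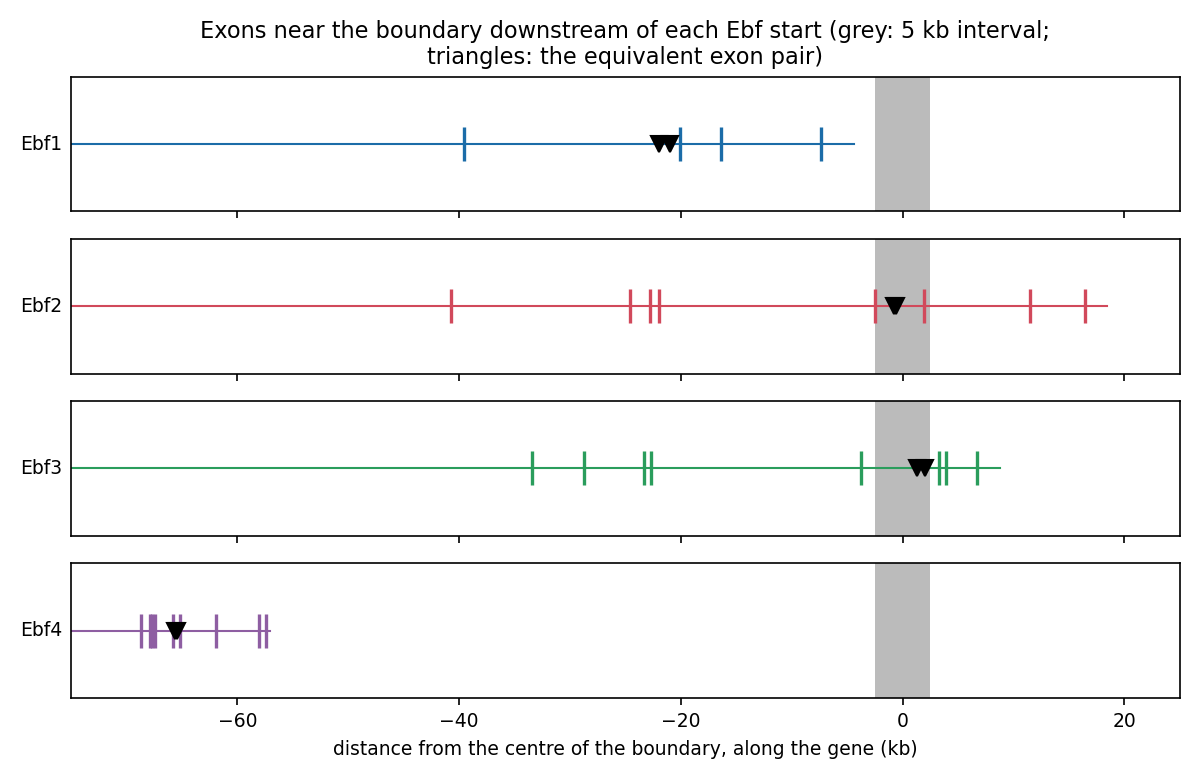
Exons of each Ebf gene (bars) by distance in kb from the centre of the boundary downstream of the start, along the gene, with the 5 kb interval in grey and the exon pair equivalent to exons 12 and 13 of Ebf3 as triangles. The triangles sit inside the interval in Ebf2 and Ebf3 and 18.4 kb or more before it in Ebf1 and Ebf4; the line ends at the end of the gene.

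The intervals upstream of Ebf1 and Ebf3, close in score, differed in base composition. Upstream of Ebf3 the interval had 42.6 CG dinucleotides per kb, more than 99.0% of all listed boundaries, and a GC content of 52.4%. Upstream of Ebf1 the interval of higher score had 12.6 per kb and a GC content of 43.6%, while the median boundary had 8.6 per kb and 42.8%. Upstream of Ebf2 and Ebf4 there were 9 and 7.2 per kb. No annotated gene overlapped the upstream intervals of Ebf1 and Ebf3. The 300 bases richest in CG within each of these intervals are shown to set this difference beside the scores of 1.84 and 2.08, with CG in capitals, read 5′ to 3′ on the strand of the gene (chr7:137322579-137322878, minus, and chr11:44608632-44608931, plus, GRCm38).
Ebf3 upstream boundary: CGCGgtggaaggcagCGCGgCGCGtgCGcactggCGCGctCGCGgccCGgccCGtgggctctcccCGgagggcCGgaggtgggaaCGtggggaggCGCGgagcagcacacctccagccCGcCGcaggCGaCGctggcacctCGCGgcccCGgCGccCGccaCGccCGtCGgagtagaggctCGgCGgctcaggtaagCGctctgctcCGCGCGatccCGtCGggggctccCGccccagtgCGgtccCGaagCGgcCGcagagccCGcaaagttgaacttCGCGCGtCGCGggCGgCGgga
Ebf1 upstream boundary: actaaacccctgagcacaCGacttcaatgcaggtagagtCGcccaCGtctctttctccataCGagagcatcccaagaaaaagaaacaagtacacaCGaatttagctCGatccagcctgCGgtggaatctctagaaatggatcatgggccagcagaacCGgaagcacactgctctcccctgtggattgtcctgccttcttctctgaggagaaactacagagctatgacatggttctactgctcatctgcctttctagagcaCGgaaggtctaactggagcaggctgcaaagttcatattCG

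The window of Ebf3 held 51 CG dinucleotides at a GC content of 78% and lay 8.13 kb from the start, and that of Ebf1 held 10 at 49.7% and lay 8.39 kb from the start. The number of DpnII sites (GATC), at which the assay cuts, was 10 upstream of Ebf1, 6 of Ebf2, 11 of Ebf3 and 9 of Ebf4, beside a median of 12 over all boundaries. Their part in the scores was not tested.

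CTCF is the zinc finger protein that halts cohesin at many boundaries. Exact matches to its core motif of 12 letters, searched on both strands within 10 kb of the interval, were present at 2 of the 8 boundaries flanking the Ebf starts, against 26% of all listed boundaries and 33.7% of strong ones. None of the 8 had a match inside the interval itself, against 6.9% of all boundaries. The upstream boundaries of Ebf1 and Ebf3, with the highest scores of the 8, had no exact match within 10 kb. That says only that these letters are not in these windows. Both matches are printed 5′ to 3′ on the strand of the match, with the core in capitals (chr14:67211903-67211932, plus, and chr11:45008295-45008324, minus, GRCm38).
Ebf2 upstream boundary: tggaaatatCCACTAGATGGCaccccagtc
Ebf1 downstream boundary: tggctcatgCCAGCAGAGGGCagcagtacg

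The match at Ebf2 lay 21.4 kb upstream of the start, between the boundary interval and the gene. That at Ebf1 lay 1.69 kb before the downstream interval, just past the end of the gene. Both were oriented into the domain of their gene.

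The palindromic motif bound by Ebf proteins, TCCC and GGGA with any 2 bases between them, reads the same on both strands and was found in 1 of the 8 flanking intervals, beside 9.31% of all listed boundaries. With 10 kb around the interval added, as for CTCF, matches numbered 2 upstream and 2 downstream of Ebf1 and 1 upstream of Ebf4. The other flanking boundaries had none, and the share of all boundaries is not given for this window. The match in the interval lay in the downstream boundary of Ebf1 (chr11:45013402-45013431, plus, GRCm38), 396.1 kb from the start, and is shown with the motif in capitals.
Ebf1 downstream boundary, Ebf motif: agagtgttctTCCCTGGGGAagattgtttt

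The bodies of the genes held 4 matches in Ebf1, 7 in Ebf2, 4 in Ebf3 and 2 in Ebf4, or 1.02, 3.54, 3.31 and 2.66 per 100 kb. The density in other gene bodies was not computed, and binding at these matches was not tested. RefSeq promoter windows on GRCm38.p6, from 250 bases before to 50 after a start, were matched for Ebf1, Ebf3 and Ebf4. None of them held the motif, and 0.904% of 32851 such windows did.

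Partners of Ebf factors, and genes of olfactory neurons with known or likely Ebf sites, were described in the same way. The list of 12 held the Ebf-binding zinc finger genes Zfp423 and Zfp521, the receptor enhancer factors Lhx2 and Ldb1, and the olfactory cascade and marker genes Omp, Gnal, Adcy3, Cnga2, Cnga4, Gng13, Ano2 and Stoml3. Of these, 3 started within 10 kb of a boundary (Lhx2 at 0.72 kb, Zfp521 at 2.21 kb and Gnal at 3.22 kb), 6 had strong boundaries on both sides, and 1, Zfp521, was the only protein-coding start in its domain. Over all protein-coding genes these shares were 16.4, 38.1 and 9.01%. None covered 80% of its domain, the highest being Zfp521 at 74.2% and Gnal at 72.9%. Among all 16553 genes under 50 kb with a boundary on both sides, 0 reached that coverage. Cnga2, Cnga4, Gng13, Ldb1, Lhx2, Omp and Stoml3 were under 50 kb, so that for them this is no separate result. The upstream boundary was the nearer one in 10 of 12 and had the higher score in 9 of 12, beside 51.7 and 51% of all genes. The median domain was 358 kb in the list, 190 kb for the Ebf genes and 275 kb for all genes, and the median coverage 6.57, 90.4 and 5.42%. These medians were not matched for gene length.

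Gnal, which encodes the G protein of odorant signalling, had the highest upstream score of the list, 1.57, with a start 3.22 kb away, and a downstream score of 0.28 in a domain of 190 kb. Zfp521, like Zfp423 a partner of Ebf proteins, started near a weak boundary (0.331) and had another weak one downstream (0.202). Zfp423 was 130.4 kb from its nearest boundary (1.05) and covered 55.1% of a domain of 540 kb. Adcy3, the adenylyl cyclase of odorant signalling, covered 53.6% of a domain of 150 kb. The list was compiled with earlier results of these data known, and no difference between it and the Ebf genes was tested.

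Loci most like each member were found over the percentile ranks of 6 measures, namely domain length, distance and score of the boundary on each side, and gene length, with the Euclidean distance as the measure of likeness. The closest to Ebf1 was Cfap77 (distance 0.0929), followed by Ahi1 and Plxnc1. The closest to Ebf2 was Arhgef10 (0.0977), followed by Taok3 and Sipa1l3. The closest to Ebf3 was Dop1a (0.0762), followed by Arhgap35 and Pls1, and to Ebf4 Fbrsl1 (0.0751), followed by Baiap2l1 and Usp43. Arhgap35 and Sipa1l3 were also the only protein-coding starts of their domains and covered 86.6 and 86.7% of them. The domains of the other loci named here held 2 to 7 protein-coding starts, and these loci covered 30.4 to 83.8% of them.

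By the same measure, Ebf2 and Ebf3 were the closest pair of members (0.34), with 0.906% of all genes closer to Ebf2 than Ebf3 was. Ebf3 and Ebf4 were 0.546 apart, with 3.28% of genes closer to Ebf3. Ebf1 and Ebf2 were 0.569 apart, with 3.94% closer to Ebf1, and Ebf2 and Ebf4 0.496 apart, with 4.38% closer to Ebf2. Ebf1 was farther from Ebf3 (0.877, with 19.4% of genes closer to Ebf1) and from Ebf4 (0.901, with 21.3%).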

How the data were processed

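The authors merged the contacts of the 2 replicates into a single matrix (GRCm38) before calling boundaries, per the labels and the series' design text. Which program called them, and with which settings, is not given in the sources used here. Each boundary score is the authors' own value per interval, as deposited, and was used only to describe and rank boundaries within this list. Depth per replicate is unknown, and contact matrices and other tracks were not analysed here.

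Genes came from GENCODE M21 and sequence from the C57BL/6J reference GRCm38.p6, the build of the list; the cells were FVB/NTac. Distances were taken to the edge of the 5 kb interval. Shares of all genes and boundaries are descriptions, and the 4 genes, related by descent, are not replicates. The measures were computed in Python 3.11.15 with pandas 2.3.3. Nearest distance, domain length, upstream score, boundaries in the gene body, protein-coding starts per domain and merging were tested on simulated data. Coverage, likeness, motif matches and exon matches were not. Named were all members, protein-coding genes in their domains (up to 10 per member), the next protein-coding start on each side, the pathway list and the 3 loci most like each member. The members and lists were chosen with earlier results of these data known. Domain coverage, exons, composition and noncoding genes were examined after the loci had been seen. Alternatives were stronger or merged boundaries, other starts, windows, edges and gene types.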

Additional observations from a re-analysis of the deposited data

How the results depend on the processing

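Domain lengths, boundaries in gene bodies and separated neighbours of the 4 Ebf genes did not change when only the strong class was kept. They also stayed the same when boundaries scoring below the median were dropped, and when those within 50 kb of each other were merged. These settings could not have moved them. All 8 flanking boundaries were strong and scored at least 0.61, above the median of 0.53. No boundary listed within 1 Mb of the starts lay within 50 kb of another. Taking inner edges shortens every domain by the 5 kb width of 1 interval by construction. That is within the 10 kb, or 2 intervals, allowed for a length to be called unchanged. These settings therefore give no test of robustness. With all gene types counted, the other genes in the domain numbered 2 for Ebf1, 5 for Ebf2, 1 for Ebf3 and 15 for Ebf4. From the internal start of Ebf3, 46.9 kb into the gene, the nearest boundary was 52.5 kb away. The number of members with a boundary near the start was 0 at a window of 0 kb, 3 at 25 kb and 4 at 50 kb. Over the boundary interval alone, CTCF core matches were 0 upstream of Ebf2 and 0 downstream of Ebf1. Coverage thresholds of 70 and 90%, chosen after seeing the data, were passed by 3 and 2 members, beside 2.83 and 0.85% of genes. No paired analysis was possible because the replicates were pooled into 1 list before calling, and leaving out a replicate could not be run for the same reason. The unknown depth limits whether weaker boundaries inside these genes would have been called.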
